A study of Mus musculus with 22 samples.

Results

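Cardiac fibroblasts carrying the cardiac factor retrovirus MGT were compared with fibroblasts carrying a lacZ retrovirus at day 10 of culture, across all genes measured on microarrays. The members were chosen by their labels alone: 2 day 10 MGT arrays and 2 day 10 lacZ arrays, 4 of the 22 arrays in the series. All groups used here were cardiac fibroblasts (CF) from mice of the CD1 strain and aMHC-GFP genotype, in which the Myh6 promoter, active in heart muscle cells, drives green fluorescent protein. The MGT vector is a polycistronic retrovirus that expresses Mef2c, Gata4 and Tbx5, and the lacZ vector expresses bacterial beta-galactosidase in the same kind of fibroblast. Day 7 and day 3 cultures of both vectors, 4 arrays each, serve as comparisons. The share of cells that took up a vector is not stated in the labels. Nor do they say whether the 2 arrays of a group came from separate cultures. The p-values therefore reflect how far arrays of the same group differ, pooled over the series, and nothing wider. That spread may be technical.

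The MGT factors bind together at enhancers of heart genes, and their joint expression can turn a part of cultured fibroblasts into induced cardiomyocytes. Cardiomyocytes contract through sarcomeres, in which myosin thick filaments pull on actin thin filaments between Z-discs, and calcium released from the sarcoplasmic reticulum starts each contraction. Fibroblasts instead make and remodel the collagen-rich matrix of the heart and secrete signals such as Wnt inhibitors and growth factor binding proteins.

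Each level below is log2 of the processed spot signal minus the same array's 75th percentile, so that 0 is a fairly bright probe of that array. A day 10 difference is the mean level on the MGT arrays minus that on the lacZ arrays, in log2 units, with its standard error (SE) and n = 2 arrays per group. The SE rests on a spread pooled over all 22 arrays, not on that of the day 10 arrays alone. A gene was called higher or lower when limma's p-value, adjusted by Benjamini-Hochberg over all genes, was under 0.05. Where both arrays of one group had a probe well above background and neither array of the other did, the difference is given as "at least N-fold". That bound sets the bright group's mean against the dim group's mean of, per array, the lowest signal well above background or the probe's own signal, whichever was higher.

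Across the 4 arrays 50.1% to 59.6% of 59305 non-control spots were well above background, and the 75th percentile of the signal lay between 1285 and 1732. The small number of arrays limits the precision of every value. Day 10 and day 7 arrays of both vectors were on 1 slide with 1 scan, but lacZ arrays held the first 2 positions of a row and MGT arrays the next 2, so position and vector cannot be told apart. The median absolute difference between replicates was 0.185 for lacZ and 0.099 for MGT, and over the 11 groups of the series it ranged from 0.0582 to 0.264. A spread pooled over the groups can therefore be too small for the day 10 lacZ arrays. Of 14254 genes well above background on all 4 arrays, 76 were more than 2 log2 units higher on the second lacZ array than on the first, 12 were as much lower, and 7 differed by as much between the MGT arrays.

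Among the genes by which the second lacZ array stood apart were genes of macrophages, immune cells that live in heart tissue. Mrc1, the macrophage mannose receptor, was at 0.30 and 4.66 on the lacZ arrays and 1.03 and 1.53 on the MGT arrays. F13a1, the coagulation factor XIII subunit that macrophages make, was at -2.795 and 2.50 on the lacZ arrays and -0.77 and -0.41 on the MGT arrays, and Cd5l, a protein secreted by macrophages, at -3.29 and 0.10 on the lacZ arrays and -2.41 and -2.49 on the MGT arrays. In each of these genes the second lacZ array was the highest of the 4 and the first lacZ array the lowest. They were among the genes furthest apart between the lacZ arrays, so their wide gap follows from that choice. Other genes with a wide gap went the other way, such as Zfp389 (0.35 and -4.38 on the lacZ arrays) and Atp6v1g2 (-0.61 and -4.47). Over 22 macrophage and leukocyte markers the summed linear level was 388 on that array, against 203 on the first lacZ array and 235 and 248 on the MGT arrays. On the day 7 arrays it lay between 168 and 211.

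**Figure D1:**
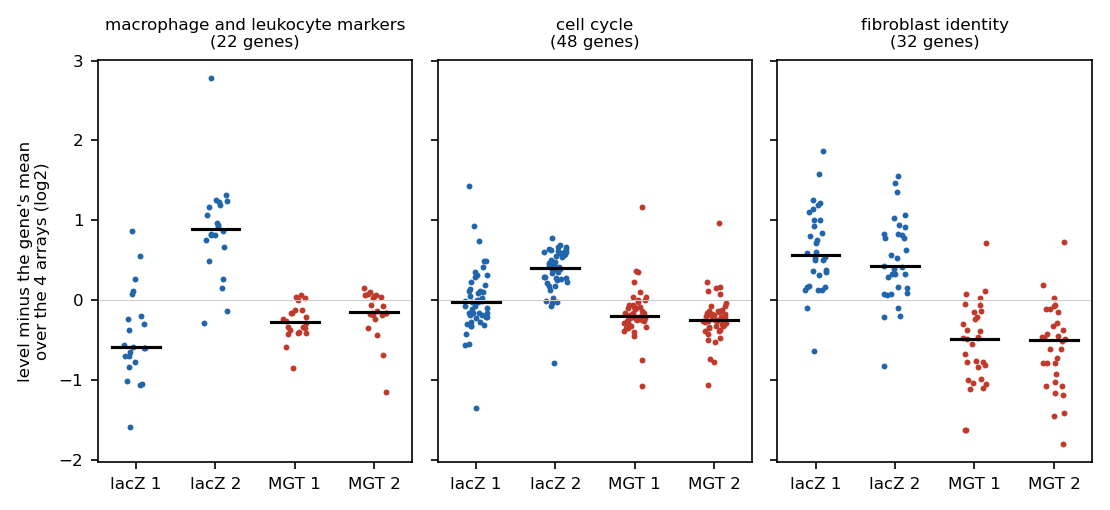
Level of each gene minus its mean over the 4 day 10 arrays (log2, y axis) on each array (x axis) for the macrophage and leukocyte, cell cycle and fibroblast identity lists; each point is a gene and each bar the list median. The second lacZ array is highest for most macrophage and cell cycle genes, while both lacZ arrays are above both MGT arrays in the median of the fibroblast identity genes.

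At day 10 MGT and lacZ cultures differed in 7103 of 18043 genes, 39.4% of those tested, of which 2744 (15.2%) were higher and 4359 (24.2%) were lower in MGT. These shares are the base for the counts of each gene list below. Among the largest differences were muscle genes well above background in MGT and at or near background in lacZ. Of the called genes 2144 differed by at least 1 log2 unit, 1185 higher and 959 lower. Among called genes well above background on all 4 arrays, 122 were higher by at least 3 log2 units and 19 lower by as much. A further 326 called genes were well above background on both MGT arrays and neither lacZ array, and 63 the other way round. The median difference over all genes was -0.11. Scaling each array instead on probes well above background on every array moved this median to -0.03 and the calls to 3324 higher and 3301 lower, from 38.6% to 50.2% higher, so the split of small differences depends on the scaling. Without the second lacZ array 6654 genes were called, 5775 of them the same genes in the same direction. From the 4 day 10 arrays alone, with no other day to help estimate the spread, 3295 genes were called, and 3126 of them were called in the same direction by the fit over all arrays. Among the genes described here that smaller fit ended, for example, the calls of Gata4, Gata6, Hand2, Hey2, Flt1, Msln, Myl2, Tcf21, Vim, Aif1, Ucn2, Tie1, Irf7 and Zbp1.

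**Figure D2:**
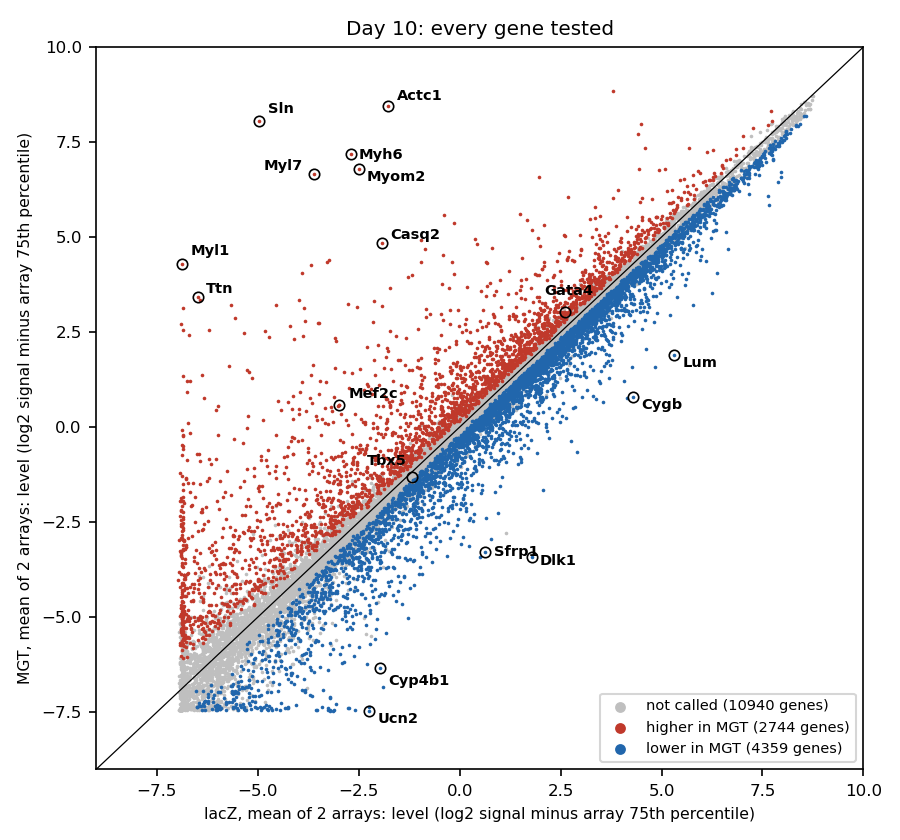
Mean level of each of 18043 genes on the 2 lacZ arrays (x axis) against the 2 MGT arrays (y axis) at day 10, both as log2 signal minus the array's 75th percentile; red genes were called higher in MGT, blue lower and grey neither, and the line marks equal levels. Genes such as Sln, Actc1 and Myl7 lie 10 or more log2 units above the line, while the lowest gene measured on all 4 arrays, Dlk1, lies 5.20 below it.

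Of the 3 delivered factors 2 were called higher. Mef2c, a MADS-box factor of muscle genes, was at -3.43 and -2.57 on the lacZ arrays and 0.65 and 0.53 on the MGT arrays. The groups did not overlap, and the difference was 3.59 ± 0.52, adjusted p = 9.61e-05. Gata4, a zinc finger factor already expressed in cardiac fibroblasts, was at 2.72 and 2.48 on the lacZ arrays and 3.07 and 3.01 on the MGT arrays, a difference of 0.44 ± 0.08, adjusted p = 0.000886 that was lost in the fit of the 4 day 10 arrays alone (adjusted p = 0.0939). Tbx5, a T-box factor of the heart, was at -1.30 and -1.04 on the lacZ arrays and -1.34 and -1.31 on the MGT arrays and did not pass the test (-0.15 ± 0.25, adjusted p = 0.659). These probes report on the messenger they match, and whether each matches the transcript made by the vector is not stated in the labels. The Mef2c probe is shown because it gave the largest difference of the delivered factors. It covers chr13:83772788-83775025 on the plus strand of mm9, across an exon junction of the gene, and reads 5′ to 3′ (no part is in capitals):
Mef2c probe: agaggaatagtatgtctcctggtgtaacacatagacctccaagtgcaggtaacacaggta

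Genes of the sarcomere were among the largest rises. All 10 of the thick filament genes that passed the test were higher in MGT, of 12 tested, with a list median of 4.55. For the thin filament it was 9 of 12, all higher (median 3.45), and for titin, Z-disc and M-band genes 21 of 24, all higher (median 3.93). The median over all genes was -0.11.

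Myl7, the atrial myosin light chain, was at -3.14 and -4.09 on the lacZ arrays and 6.73 and 6.56 on the MGT arrays. Actc1, cardiac alpha-actin, was at -1.63 and -1.91 on the lacZ arrays and 8.47 and 8.41 on the MGT arrays, and Myh6, the alpha myosin heavy chain whose promoter drives the reporter, at -2.79 and -2.62 on the lacZ arrays and 7.21 and 7.14 on the MGT arrays. The groups of these 3 genes were further apart than any replicate pair by 9 log2 units or more: the differences were 10.26 ± 0.23, adjusted p = 1.71e-12 for Myl7, 10.21 ± 0.11, adjusted p = 6.13e-15 for Actc1 and 9.88 ± 0.14, adjusted p = 4.27e-14 for Myh6. On the linear scale these are 1229-fold, 1188-fold and 940-fold. A second Myh6 probe was called higher too, with a smaller difference of 5.13. The probes of Myl7, Actc1 and Myh6 lie at chr11:5798186-5798435, chr2:113873064-113873123 and chr14:55560774-55560833 of mm9.

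Myom2, the M-protein of the M-band, was at -2.02 and -2.99 on the lacZ arrays and 6.78 and 6.82 on the MGT arrays, a difference of 9.30 ± 0.40, adjusted p = 9.11e-10. Titin itself, the elastic filament of the sarcomere (Ttn), was at -6.47 and -6.50 on the lacZ arrays and 3.36 and 3.48 on the MGT arrays. Neither lacZ array was above background for it, and MGT was at least 263-fold higher (adjusted p = 8.35e-11). Bounds of the same kind were at least 214-fold for the costamere protein Smpx, 144-fold for the muscle LIM protein Csrp3, 130-fold for the slow-type myosin Myh7b and 41.2-fold for the Z-disc alpha-actinin Actn2. Desmin (Des), the intermediate filament of muscle, was measured on all 4 arrays and was higher by 5.19 ± 0.06, adjusted p = 7.11e-15.

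Cardiac troponins differed in how far the lacZ cultures already expressed them. Tnnt2, cardiac troponin T, was bright in both groups at 4.71 and 4.27 on the lacZ arrays and 8.02 and 7.95 on the MGT arrays, with a difference of 3.50 ± 0.12, adjusted p = 7.7e-11. Tnni3, the adult cardiac troponin I, was at -6.38 and -4.95 on the lacZ arrays and 3.24 and 3.18 on the MGT arrays and above background on 1 of the lacZ arrays, a difference of 8.88 ± 0.53, adjusted p = 2.15e-08. Tnnc1, the cardiac and slow troponin C, was higher by 6.29 ± 0.16, adjusted p = 6.61e-12. The ventricular light chain Myl2 was higher by 1.14 ± 0.19, adjusted p = 0.000323, from a probe above background on 1 lacZ array, but was dim in MGT at -3.01 and -2.76. Genes of the lists that did not pass the test included Smyd1 (-0.05), Nebl (-0.15), Neb (-0.14), Synpo2l (-0.34) and Nrap (0.39), of which Nrap was called higher by 1.33 when its probes were averaged.

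**Figure D3:**
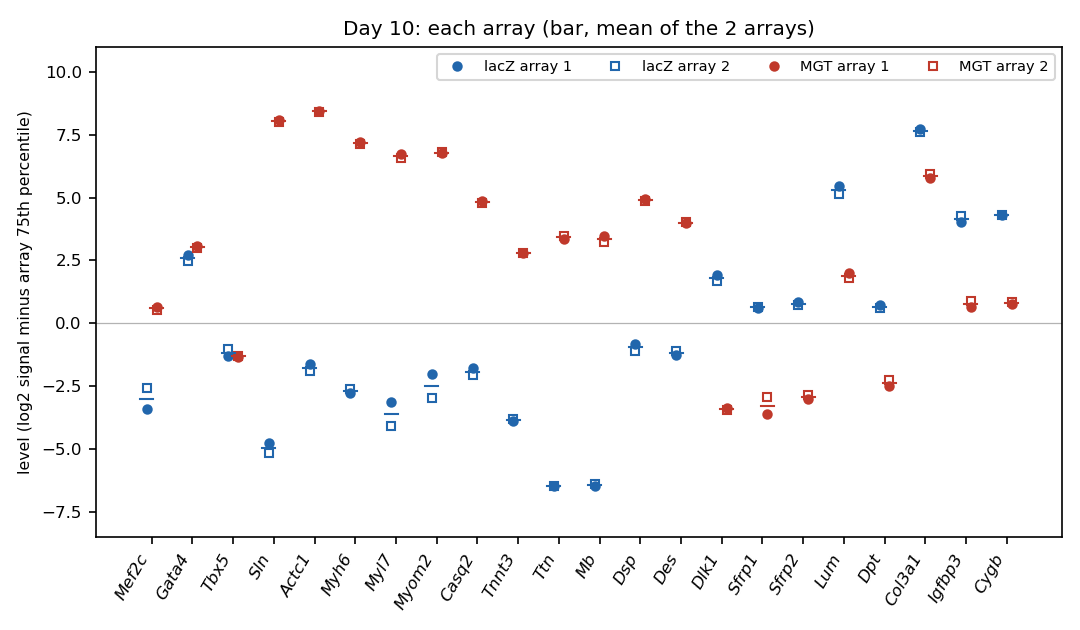
Level of 22 named genes on each day 10 array (y axis, log2 signal minus the array's 75th percentile; filled circles, first array; open squares, second array; bars, means of 2 arrays) for lacZ (blue) and MGT (red). For the genes from Sln to Des both MGT arrays are above both lacZ arrays by 3 log2 units or more, for Dlk1 to Cygb both are below, and for Tbx5 the arrays nearly coincide.

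The promoters of 3 of these genes are shown because they hold a motif of a muscle factor close to the start site. RefSeq's table of promoter windows (GRCm38.p6, 250 bases before to 50 after the start, read along the gene's strand) held 15 of the 20 genes with the largest rises (12 measured and 8 by their bound). The MEF2 consensus, searched on both strands, was found for 2 of these 15 genes, Casq2 and Ttn, and for 2.16% of all 27018 genes with a window. The CArG box, the site of serum response factor, searched in the same way, was found for 2 of 15, Actc1 and Myl7, and for 1.81% of all genes. No gene among these held both. Over the thick filament, thin filament and titin lists together, 6 of 41 genes with a window held the MEF2 consensus and 6 of 41 the CArG box. Among 11 of the 20 genes with the largest falls that had a window, 1 held the MEF2 consensus, Ms4a4d, and 0 the CArG box. A match is a description of the letters only. The capitals mark the match, at -47 from the start for Actc1 (chr2:114052826-114053125, minus strand, CArG box), -69 for Casq2 (chr3:102086165-102086464, plus strand, MEF2) and -166 for Ttn (chr2:76982498-76982797, minus strand, MEF2):
Actc1: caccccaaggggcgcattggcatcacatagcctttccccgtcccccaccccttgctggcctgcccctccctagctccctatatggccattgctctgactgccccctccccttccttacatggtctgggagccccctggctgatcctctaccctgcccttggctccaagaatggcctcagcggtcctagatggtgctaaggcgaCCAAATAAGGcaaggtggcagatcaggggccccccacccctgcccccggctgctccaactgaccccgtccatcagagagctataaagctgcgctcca
Casq2: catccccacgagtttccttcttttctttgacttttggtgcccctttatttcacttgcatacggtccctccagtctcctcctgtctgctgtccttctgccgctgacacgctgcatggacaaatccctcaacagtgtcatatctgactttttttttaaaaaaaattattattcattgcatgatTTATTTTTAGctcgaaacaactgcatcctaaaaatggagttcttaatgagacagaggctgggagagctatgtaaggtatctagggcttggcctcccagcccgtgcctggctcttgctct
Ttn: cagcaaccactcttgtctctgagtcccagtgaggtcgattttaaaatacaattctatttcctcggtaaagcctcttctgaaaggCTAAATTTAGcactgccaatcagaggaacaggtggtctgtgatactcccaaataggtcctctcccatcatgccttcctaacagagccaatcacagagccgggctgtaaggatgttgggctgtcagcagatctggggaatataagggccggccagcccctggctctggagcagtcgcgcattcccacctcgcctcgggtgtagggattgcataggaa

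Genes that store and release calcium were higher together with the sarcomere. Of 19 sarcoplasmic reticulum genes 14 were called higher and 0 lower (median 2.22). Sln, sarcolipin, a small inhibitor of the calcium pump, was at -4.77 and -5.16 on the lacZ arrays and 8.11 and 8.01 on the MGT arrays. With neither lacZ array above background, MGT was at least 6515-fold higher (adjusted p = 2.48e-12), the largest bound among the genes tested. Casq2, cardiac calsequestrin, which binds calcium in the reticulum, was at -1.79 and -2.08 on the lacZ arrays and 4.88 and 4.78 on the MGT arrays, a difference of 6.76 ± 0.12, adjusted p = 2.8e-13. The calcium release channel Ryr2 was at least 63.5-fold higher and the reticulum protein sarcalumenin (Srl) at least 66.8-fold. The pump itself, Atp2a2, which fibroblasts also use, was higher by 3.398 ± 0.10, adjusted p = 2.18e-11. Pln, phospholamban, the pump's cardiac inhibitor, reached only -2.87 and -3.07 in MGT, at least 3.1-fold above lacZ.

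Ion channels were divided. Of 32 channel and exchanger genes 13 were higher and 4 lower (median 0.42). The transient outward potassium channel Kcnd2 was at least 5.9-fold higher. Cacna1c, the L-type calcium channel of cardiomyocytes, was higher by 2.27 ± 0.14, adjusted p = 3.77e-08, while Cacna1g, a T-type calcium channel, was at -1.57 and -1.61 on the lacZ arrays and -4.66 and -4.51 on the MGT arrays and lower by 2.99 (adjusted p = 5.22e-08).

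Cell junction genes were called in 1 direction, higher in MGT: 12 of 15 intercalated disc and gap junction genes were higher and 0 lower (median 1.66). Desmoplakin (Dsp), which ties desmosomes to desmin, was at -0.81 and -1.11 on the lacZ arrays and 4.96 and 4.89 on the MGT arrays, a difference of 5.88 ± 0.14, adjusted p = 2.91e-12. The atrial and conduction system gap junction gene Gja5 was at -3.99 and -4.33 on the lacZ arrays and -0.36 and -0.17 on the MGT arrays, a difference of 3.89 ± 0.15, adjusted p = 2.72e-10 from its brightest probe, while its other probe gave 0.50 and was not called. Among adrenergic and cAMP genes 11 of 22 were higher and 6 lower. Sphkap, which anchors protein kinase A, was at least 144-fold higher, and the cAMP-binding Popeye genes Popdc3 and Bves were higher by at least 35.7-fold and by 3.95 ± 0.10, adjusted p = 7.21e-12. The adrenergic receptor Adrb1 did not pass the test (-0.67 ± 0.28, adjusted p = 0.0706), but was called lower in the fit of the 4 day 10 arrays alone (adjusted p = 0.0283).

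Cardiac hormones and granins, the secretory granule proteins, were higher in 8 of 14 genes and lower in 2. Nppa, the atrial natriuretic peptide, was at -1.01 and -1.34 on the lacZ arrays and 1.66 and 1.34 on the MGT arrays, a difference of 2.68 ± 0.15, adjusted p = 9.57e-09. Corin, the protease that activates it, was at least 15.04-fold higher. Scg2 and Scg5, granule proteins, were higher by 2.75 ± 0.14, adjusted p = 3.52e-09, and by 4.29 ± 0.13, adjusted p = 4.3e-11. The clearance receptor Npr3 was at 0.38 and 0.28 on the lacZ arrays and -2.54 and -2.38 on the MGT arrays and lower by 2.797 (adjusted p = 3.27e-10).

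The heart's own transcription factors moved far less than its structural genes. Of 24 tested 6 were higher and 8 lower, where 15.2% of all genes were higher and 24.2% lower. The median, in which rises and falls offset each other, was -0.12 beside -0.11 over all genes. Hopx, a homeodomain protein of cardiac progenitors and myocytes, was at -3.81 and -3.46 on the lacZ arrays and 1.62 and 1.66 on the MGT arrays, a difference of 5.28 ± 0.16, adjusted p = 3.63e-11. Ankrd1, a muscle ankyrin repeat protein, Tbx18 and Myocd, the serum response factor coactivator, were higher by 1.66, 1.34 and 1.22. Nkx2-5, the homeobox factor of the early heart, was at -4.24 and -3.67 on the lacZ arrays and -3.81 and -3.74 on the MGT arrays and did not pass the test (0.18 ± 0.50, adjusted p = 0.807). Gata6 (-0.39 ± 0.09, adjusted p = 0.00346), Hand2 (-0.44 ± 0.10, adjusted p = 0.00414; lost with the deposited table) and Zfpm2, a partner of GATA factors (-0.80 ± 0.10, adjusted p = 3.73e-05), were lower.

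Genes usually found in skeletal muscle rose as well, in 15 of 28 tested, against 3 lower. Myl1, a fast and embryonic myosin light chain, was at -6.40 and -7.34 on the lacZ arrays and 4.26 and 4.33 on the MGT arrays, with MGT at least 481-fold higher (adjusted p = 1.2e-10). Tnnt3, fast troponin T, was at -3.88 and -3.80 on the lacZ arrays and 2.805 and 2.798 on the MGT arrays, and Myh8, perinatal myosin, at -0.21 and -0.55 on the lacZ arrays and 5.62 and 5.53 on the MGT arrays. Their differences were 6.64 ± 0.13, adjusted p = 5.38e-13, and 5.95 ± 0.17, adjusted p = 2.2e-11. The myogenic determination factors Myod1, Myog and Myf6 were well above background in neither group, and none of them passed the test (adjusted p = 0.702, 0.398 and 0.985), although Myog was called higher with quantile normalization (adjusted p = 0.00545) and in the deposited table (adjusted p = 0.000599). Vgll2, a cofactor of TEAD factors in muscle, was at -3.84 and -3.85 on the lacZ arrays and 3.19 and 3.08 on the MGT arrays, a difference of 6.98 ± 0.63, adjusted p = 1.19e-06.

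Genes of muscle fuel and oxygen use were higher in 17 of 27 and lower in 3 (median 2.04). Myoglobin (Mb), the oxygen store of muscle, was at -6.47 and -6.40 on the lacZ arrays and 3.47 and 3.23 on the MGT arrays, and MGT was at least 249-fold higher (adjusted p = 2.52e-10). The glycolytic muscle enzymes Pgam2 and Eno3 were higher by 4.52 ± 0.12, adjusted p = 8.18e-12, and by 3.21 ± 0.10, adjusted p = 5.09e-11, and the insulin-regulated glucose transporter Slc2a4 by 4.01 ± 0.12, adjusted p = 2.97e-11. The general machinery of energy supply moved less: 8 of 23 fatty acid oxidation genes were higher and 1 lower, with Acaa2, the last enzyme of the mitochondrial cycle, higher by 2.22 ± 0.11, adjusted p = 2.66e-09. Of 37 respiratory chain genes 5 were higher and 3 lower. The first count depends on the scaling, with 15 higher when arrays were scaled on probes above background on every array and 24 after quantile normalization. Of 18 genes of general glycolysis 3 were higher, Hk2 among them (0.99 ± 0.12, adjusted p = 2.24e-05), and 5 lower, with Eno2 the furthest (-1.03 ± 0.07, adjusted p = 1.48e-07). These glycolysis shares were near those of all genes (15.2% and 24.2%). Without the second lacZ array 1 was higher and 3 lower.

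Other genes with the largest rises belonged to none of these lists. Thbs4, a matrix thrombospondin, was at -3.56 and -3.81 on the lacZ arrays and 4.39 and 4.16 on the MGT arrays, and Rab3b, a GTPase of vesicle release, at -3.83 and -3.96 on the lacZ arrays and 4.15 and 3.94 on the MGT arrays. Ppp1r3c, which brings protein phosphatase 1 to glycogen, was higher by 7.64 ± 0.21, adjusted p = 1.47e-11. Abi3bp, a matrix-binding protein, was higher by 7.64 ± 0.30, adjusted p = 4.58e-10, and Efhd1, a mitochondrial calcium-binding protein, by 7.30 ± 0.56, adjusted p = 2.77e-07. These 5 genes were named for the size of their rise, so the separation of their arrays follows from that choice. Col22a1, a collagen of tissue junctions, was at least 179-fold higher.

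**Figure D4:**
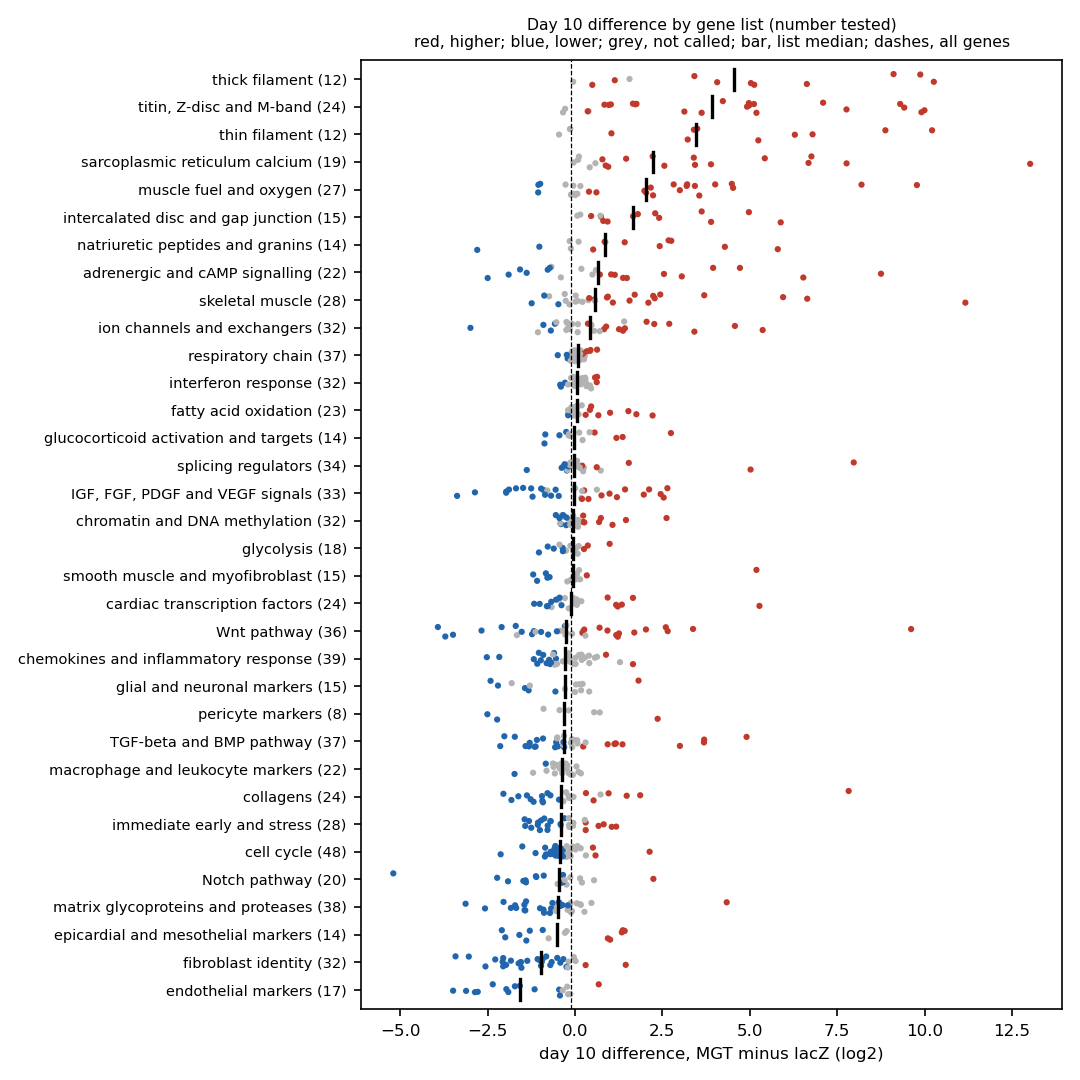
Day 10 difference of each gene (x axis, MGT minus lacZ, log2) by gene list (rows, with the number of genes tested), ordered by the list median (black bar); red genes were called higher, blue lower and grey neither, and the dashed line is the median of all genes at -0.11. The 3 sarcomere lists have the highest medians, at 3.45 to 4.55, and endothelial markers and fibroblast identity genes the lowest, at -1.58 and -0.99.

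Fibroblast identity genes were lower in 26 of 32 and higher in 2, Thy1 and, lost without the second lacZ array, Vim, with a median of -0.99. Lumican (Lum), a small proteoglycan of collagen fibrils, was at 5.47 and 5.16 on the lacZ arrays and 1.99 and 1.81 on the MGT arrays, lower by 3.42 ± 0.11 (adjusted p = 8.34e-11). Dermatopontin (Dpt) was at 0.71 and 0.60 on the lacZ arrays and -2.49 and -2.28 on the MGT arrays, and the PDGF receptor Pdgfra, which marks cardiac fibroblasts, at 2.52 and 2.53 on the lacZ arrays and 0.89 and 0.94 on the MGT arrays. Their differences were -3.04 ± 0.10, adjusted p = 9.43e-11, and -1.61 ± 0.06, adjusted p = 4.8e-10. Fap, the fibroblast activation protease, was lower by 2.28 (adjusted p = 7.13e-09). Tcf21, a transcription factor of the fibroblast lineage, was lower by 0.33 (adjusted p = 0.00333), a call that was lost with the deposited table. Thy1, a surface antigen of fibroblasts, was instead higher by 1.45 ± 0.08, adjusted p = 1.91e-08. In such bulk samples fewer cells of a type and less RNA per cell cannot be told apart.

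Checked against markers of both cell types, the MGT cultures still expressed fibroblast genes brightly. Of 12 cardiomyocyte markers 11 were higher, all but Nkx2-5, and their summed linear level was 885.6 and 841.9 on the MGT arrays against 27.4 and 20.46 on the lacZ arrays. Of 10 fibroblast markers 6 were lower and Thy1 higher, with a summed level of 770.5 and 753.2 on the MGT arrays against 1237 and 1058 on the lacZ arrays. A sum of linear levels weighs its brightest members most, which on the MGT arrays were Col1a2 and Col1a1. Col1a1 and Col1a2, the chains of type I collagen, were bright in both groups, at 7.69 and 7.41 on the lacZ arrays and 7.62 and 7.39 on the MGT arrays and at 8.81 and 8.56 on the lacZ arrays and 8.36 and 8.35 on the MGT arrays. Neither passed the test (adjusted p = 0.918 and 0.132), although Col1a2 was called lower with quantile normalization (adjusted p = 0.00635).

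Collagens differed among themselves. Of 24 genes 12 were lower and 6 higher (median -0.39). Col3a1, the fibrillar type III collagen, was at 7.73 and 7.62 on the lacZ arrays and 5.77 and 5.94 on the MGT arrays, a difference of -1.82 ± 0.14, adjusted p = 2.03e-07. Col10a1, the collagen of growth plate cartilage, was at least 137-fold higher in MGT, from a probe that neither lacZ array had above background. Matrix glycoproteins and proteases were lower in 22 of 38 and higher in 1, the cartilage proteoglycan aggrecan (Acan), by 4.34 ± 0.23, adjusted p = 7.5e-09. Mmp3, the protease stromelysin, was at 2.75 and 2.78 on the lacZ arrays and -0.64 and -0.09 on the MGT arrays and lower by 3.13 (adjusted p = 1.14e-06). Of 15 smooth muscle and myofibroblast genes 2 were higher and 5 lower, among the latter Actg2, the smooth muscle gamma-actin (-1.20 ± 0.16, adjusted p = 4.17e-05), and Cnn1, calponin (-0.83 ± 0.09, adjusted p = 5.29e-06).

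Dlk1, a membrane protein of the Delta family that restrains differentiation, had the largest fall of any gene measured on all 4 arrays. It was at 1.90 and 1.66 on the lacZ arrays and -3.39 and -3.44 on the MGT arrays, from a probe at chr12:110698721-110698781 of mm9. The difference was -5.20 ± 0.16, adjusted p = 3.13e-11, 36.7-fold lower, and the gene's second probe gave -5.36. Smoc1, a calcium-binding matricellular protein, was at 0.60 and 0.40 on the lacZ arrays and -3.36 and -3.50 on the MGT arrays, and Gsta3, a glutathione transferase, at 3.08 and 2.73 on the lacZ arrays and -0.60 and -0.71 on the MGT arrays. Cygb, the globin of fibroblasts, was at 4.30 and 4.29 on the lacZ arrays and 0.75 and 0.85 on the MGT arrays. The differences were -3.93, -3.56 and -3.50, with adjusted p-values of 5.43e-10, 1.58e-08 and 6.02e-10. As these genes were named for the size of their fall, the separation of the 2 groups follows from that choice. Also among the 12 largest measured falls were the glypican Gpc6 (-3.36), Plac8 (-3.28), Ms4a4d (-3.24) and the oxysterol hydroxylase Cyp7b1 (-3.21).

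Wnt signalling runs from secreted ligands through Frizzled receptors to TCF and LEF factors, with secreted inhibitors outside the cell. Of 36 Wnt genes 13 were higher and 13 lower. The inhibitors moved in opposite directions. Sfrp1 was at 0.60 and 0.66 on the lacZ arrays and -3.63 and -2.95 on the MGT arrays, and Sfrp2 at 0.83 and 0.72 on the lacZ arrays and -3.03 and -2.85 on the MGT arrays, lower by 3.92 (adjusted p = 1.37e-08) and by 3.71 (adjusted p = 7.1e-08). Frzb (-1.70), Sfrp4 (-2.10) and Dkk3 (-1.52) were lower too. Wif1, which binds Wnt ligands, was at -6.48 and -7.31 on the lacZ arrays and 2.82 and 2.62 on the MGT arrays and at least 161-fold higher, and Sfrp5 at least 3.4-fold. Among ligands Wnt5b was higher (2.65 ± 0.08, adjusted p = 5.72e-11) and Wnt5a lower (-1.23 ± 0.08, adjusted p = 6.03e-08). Lef1, a nuclear factor of the pathway, was at least 4.6-fold higher, and its target and inhibitor Axin2 was higher by 1.70 ± 0.33, adjusted p = 0.00107, though above background on only 1 lacZ array.

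Notch genes were mostly lower, 12 of 20 against 1 higher (median -0.46). The receptor Notch3 was at 2.64 and 2.41 on the lacZ arrays and 0.31 and 0.29 on the MGT arrays, and the ligand Jag1 at 2.62 and 2.49 on the lacZ arrays and 0.57 and 0.70 on the MGT arrays. They were lower by 2.23 and 1.92, with adjusted p = 2.82e-09 and 2.09e-10. The target genes Hey2 (-1.12) and Heyl (-1.11) were lower, and Hes1 did not pass the test (-0.24 ± 0.15, adjusted p = 0.223) unless the second lacZ array was left out (adjusted p = 0.0218). The 1 higher gene was the ligand Jag2, well above background on both MGT arrays and neither lacZ array (adjusted p = 2.05e-05).

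Of 37 TGF-beta and BMP genes 10 were higher and 16 lower. Ltbp1, which holds latent TGF-beta in the matrix, was at 0.81 and 0.49 on the lacZ arrays and 4.29 and 4.39 on the MGT arrays, a difference of 3.69 ± 0.11, adjusted p = 2.04e-11. Grem1, a BMP antagonist, was at -1.25 and -1.48 on the lacZ arrays and 1.67 and 1.602 on the MGT arrays, a difference of 3.001 ± 0.25, adjusted p = 5.61e-07, and the antagonist Chrdl1 was at least 6.4-fold higher. Among IGF, FGF, PDGF and VEGF signals 12 of 33 were higher and 15 lower. Igfbp3, the main carrier of insulin-like growth factors, was at 4.03 and 4.25 on the lacZ arrays and 0.66 and 0.88 on the MGT arrays, and Vegfd, a growth factor of lymphatic vessels, at 4.15 and 4.01 on the lacZ arrays and 1.17 and 1.27 on the MGT arrays. Both were lower, by 3.37 and 2.86. Fgf1 and the Tie2 ligand Angpt1 were higher, by 2.64 ± 0.10, adjusted p = 2.41e-10, and 2.54 ± 0.22, adjusted p = 9.6e-07.

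Inflammatory genes were lower in 13 of 39 and higher in 2 (median -0.28). The neutrophil chemokine Cxcl5 was at 0.08 and -0.20 on the lacZ arrays and -2.67 and -2.50 on the MGT arrays, and the alarmin Il33 at 0.07 and -0.06 on the lacZ arrays and -2.23 and -2.09 on the MGT arrays. They were lower by 2.52 (adjusted p = 2.29e-06) and 2.17 (adjusted p = 3.98e-07). Lif, a cytokine of the interleukin 6 family, was higher by 1.66 ± 0.13, adjusted p = 3.49e-07, as was the acute phase gene Saa3 (0.89 ± 0.20, adjusted p = 0.00284). Interleukin 6 itself was lower (-0.98 ± 0.13, adjusted p = 4.29e-05).

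Of the lists, interferon response genes had the most changes between day 7 and day 10, whose arrays share a slide. At day 7 all 32 were lower in MGT by their values and 29 passed the test, where 22.4% of all genes were called lower on that day, with a median difference of -0.83. At day 10, 3 were higher and 3 lower, or 1 and 2 without the second lacZ array or the first MGT array and 3 and 0 without the second MGT array, and the median was 0.06. The change of the difference between the days passed the test in 13 of the 32, each upwards, where 0.793% of all genes did so. That count was 6 without the first MGT array, 9 without the second lacZ array, 1 with a replicate block and 0 from the 8 arrays of these days alone. The median level of the list on the lacZ arrays was 3.27 at day 7 and 2.53 and 2.40 at day 10. On the MGT arrays it was 2.49 at day 7 and 2.67 and 2.60 at day 10, so the lacZ level was lower at day 10 while the MGT level was close to its day 7 value.

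Ifit3, which binds viral RNA complexes as part of the interferon response, shows this. At day 7 it was at 4.67 and 4.60 on the lacZ arrays and 2.70 and 2.73 on the MGT arrays. At day 10 it was at 3.57 and 3.19 on the lacZ arrays and 3.45 and 2.92 on the MGT arrays, and the groups overlapped. The day 10 difference was -0.20 ± 0.24, adjusted p = 0.545, and the change from day 7 1.72 ± 0.33, adjusted p = 0.0327. This change missed the threshold under 7 settings, among them normexp background correction (adjusted p = 0.124) and a replicate block (adjusted p = 0.0605). Leaving out the second lacZ array (a change of 1.53) or the first MGT array (1.455) were 2 others.

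Ifi44 and Irf7, the interferon-induced gene and the factor that amplifies interferon production, were called higher at day 10. Ifi44 was at 1.94 and 1.75 on the lacZ arrays and 2.50 and 2.43 on the MGT arrays, a difference of 0.62 ± 0.16, adjusted p = 0.00713, and had been lower at day 7 (-0.97). Irf7 was at 0.11 and -0.30 on the lacZ arrays and 0.51 and 0.45 on the MGT arrays, a difference of 0.57 ± 0.17, adjusted p = 0.0179. The day 10 call of Irf7 was lost under 6 settings, among them normexp background correction (adjusted p = 0.057), the deposited table (adjusted p = 0.0531) and leaving out either MGT array. Neither day 10 call held without the second lacZ array, where the differences were 0.53 for Ifi44 and 0.37 for Irf7. Their changes from day 7 were 1.595 ± 0.22, adjusted p = 0.00505, and 1.53 ± 0.24, adjusted p = 0.0101. Zbp1, a sensor of nucleic acids, was among the 3 lower genes (-0.42 ± 0.12, adjusted p = 0.0151), a call lost without the first lacZ or the second MGT array.

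The interferon-stimulated response element, searched as GAAANNGAAA on both strands, was found for 13 of 25 list genes with a promoter window and for 3.99% of all genes with one. The window of Ifit3 (chr19:34583279-34583578, GRCm38.p6, plus strand, from RefSeq) is shown because it holds 2 matches, in capitals, the first at -156 from the start site:
Ifit3: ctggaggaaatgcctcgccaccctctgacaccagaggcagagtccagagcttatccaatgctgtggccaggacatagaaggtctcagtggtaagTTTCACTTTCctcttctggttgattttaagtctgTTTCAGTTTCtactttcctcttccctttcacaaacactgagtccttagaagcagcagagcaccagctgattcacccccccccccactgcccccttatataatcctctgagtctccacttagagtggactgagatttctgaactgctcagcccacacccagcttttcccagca

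**Figure D5:**
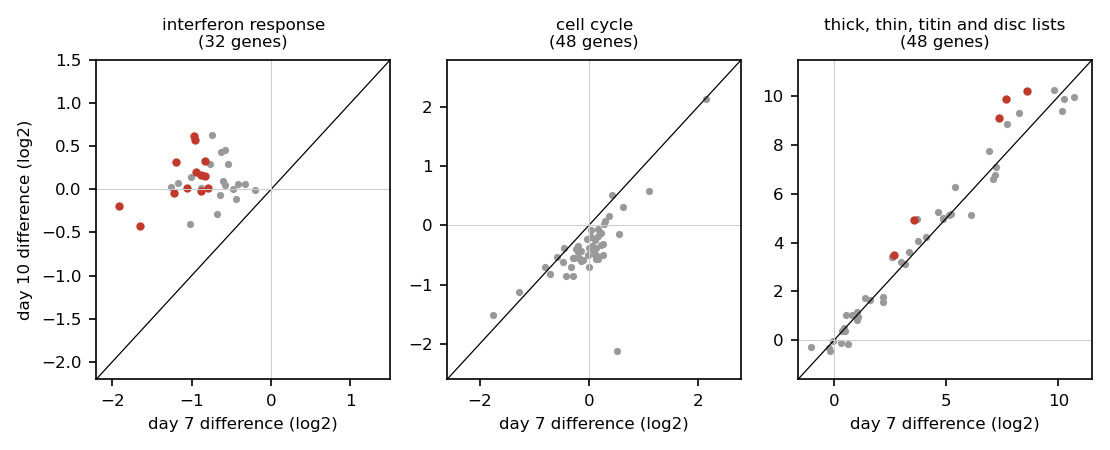
Day 7 difference (x axis) against day 10 difference (y axis), both MGT minus lacZ in log2, for the interferon response, cell cycle and combined sarcomere lists; red genes passed the test of the change between the days, grey did not, and the line marks equal differences. All 32 interferon genes lie above the line, 42 of 48 cell cycle genes lie below it, and 5 of 48 sarcomere genes are red.

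Cell cycle genes were lower in 28 of 48 and higher in 3 (median -0.43), while their median at day 7 was 0.05. The change between the days passed the test in 0 of the 48, although 42 had a lower difference at day 10. The second lacZ array was higher than the first in 39 of the 48, by a median of 0.49, and without it 18 were called lower. Without the first lacZ array 38 were. The inhibitor Cdkn2b was at 4.73 and 4.37 on the lacZ arrays and 3.06 and 3.03 on the MGT arrays. Cdkn2a, also an inhibitor, was at 3.97 and 3.62 on the lacZ arrays and 2.84 and 2.49 on the MGT arrays. They were lower by 1.51 and 1.13, and for both the first lacZ array was the higher of the pair. Ccnd1, cyclin D1, was lower by 0.83 (adjusted p = 1.28e-06). Cenpa, the centromeric histone, was instead higher by 2.13 ± 0.14, adjusted p = 7.87e-08.

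Of 32 chromatin genes 8 were higher and 7 lower, where 15.2% of all genes were higher and 24.2% lower. Tet1, which oxidises methylated DNA, was at -2.98 and -2.95 on the lacZ arrays and -0.33 and -0.37 on the MGT arrays, a difference of 2.62 ± 0.18, adjusted p = 7.57e-08, and Smarcd3, the cardiac subunit of the BAF remodelling complex, was higher by 1.07 ± 0.09, adjusted p = 6.11e-07. Of 34 splicing regulators 5 were higher and 9 lower, shares near those of all genes (15.2% and 24.2%). The muscle splicing factors Rbm24 and Rbm20 were at -6.24 and -7.29 on the lacZ arrays and 1.22 and 1.19 on the MGT arrays and at -6.42 and -7.28 on the lacZ arrays and -1.84 and -1.82 on the MGT arrays, at least 56.6-fold and 6.9-fold higher. Qk, quaking, was higher by 1.54 ± 0.11, adjusted p = 8.9e-08, and its 5 probes were all called higher. Of the lower splicing genes only 2 were called when arrays were scaled on probes above background on every array, and 3 to 6 with 1 array left out.

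Immediate early and stress genes were lower in 15 of 28 and higher in 6 (median -0.41). The flow-responsive factor Klf2 was lower by 1.44 (adjusted p = 1.64e-09) and Myc by 1.25 (adjusted p = 6.85e-06). Of 14 genes activated by or activating glucocorticoids 4 were higher and 4 lower, where 15.2% of all genes were higher and 24.2% lower. Zbtb16 was at least 3.3-fold higher, and the classical target Tsc22d3 was lower by 0.87 (adjusted p = 1.98e-06).

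Markers of endothelial cells, which line vessels, were lower in 12 of 17 and higher in 1, Flt1 (0.68 ± 0.10, adjusted p = 0.000133), with a median of -1.58. Cdh5, the endothelial cadherin, was at -1.37 and -2.03 on the lacZ arrays and -4.45 and -3.66 on the MGT arrays, a difference of -2.35 ± 0.57, adjusted p = 0.00547, whose call was lost without the first MGT array. Egfl7 was at 1.71 and 1.07 on the lacZ arrays and -0.45 and -0.22 on the MGT arrays, a difference of -1.72 ± 0.30, adjusted p = 0.000535. Tie1 was at -3.85 and -0.60 on the lacZ arrays and -5.93 and -5.49 on the MGT arrays, where the lacZ arrays were far apart, and without the second of them the call was lost (adjusted p = 0.125). The summed linear level of the 17 markers was 34.4 and 27.3 on the lacZ arrays and 29.3 and 27.0 on the MGT arrays, a range that overlapped. Such a sum weighs its brightest members most and says little about the dim ones. The median level of the list was -2.03 and -2.19 on the lacZ arrays and -3.79 and -3.66 on the MGT arrays.

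Macrophage and leukocyte markers gave 0 genes called higher and 2 lower by limma, Aif1 and, well above background in neither group, Ms4a1. The Aif1 call was lost under 7 other settings, among them leaving out the second lacZ array (adjusted p = 0.202), and that of Ms4a1 under 4. Their result turned on 1 lacZ array. Without the first lacZ array 17 of 22 were called lower, and without the second 6 were called higher and 1 lower. For Mrc1 the difference was -1.20 ± 0.91, adjusted p = 0.328 over all 4 arrays, -3.38 without the first lacZ array and 0.98 without the second. The share of the cell cycle and interferon results that moves with these markers was not tested.

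Epicardial and mesothelial markers were higher in 5 of 14 and lower in 6. Msln, mesothelin, was at 4.24 and 3.52 on the lacZ arrays and 5.36 and 5.24 on the MGT arrays, a difference of 1.42 ± 0.16, adjusted p = 9.46e-06, and Lrrn4 and Bnc1 were lower by 2.09 and 1.59. Of 8 pericyte markers 1 was higher, the proteoglycan Cspg4 (2.36 ± 0.13, adjusted p = 8.6e-09), and 2 lower, Notch3 and Rgs5 (-2.51 ± 0.30, adjusted p = 1.86e-05). Glial and neuronal markers were higher in 1 of 15 and lower in 5, with Tubb3, the neuronal beta-tubulin, at 3.95 and 3.46 on the lacZ arrays and 1.15 and 1.42 on the MGT arrays, a difference of -2.42 ± 0.18, adjusted p = 1.54e-07. The part of these cell types in the differences above was not tested.

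Some of the largest bounded falls came from genes with unsteady lacZ levels. Ucn2, urocortin 2, was at -0.86 and -3.62 on the lacZ arrays and -7.18 and -7.74 on the MGT arrays, and at day 7 at -7.89 and -8.41 on the lacZ arrays and -8.49 and -8.48 on the MGT arrays, below background on each. Gngt1, a transducin subunit, was at -2.85 and -1.63 on the lacZ arrays and -7.09 and -7.65 on the MGT arrays, and Lhx3, a LIM homeobox gene, at -3.89 and -1.57 on the lacZ arrays and -7.11 and -7.66 on the MGT arrays. The lacZ replicates of these genes differed by 1 to 3 log2 units, and MGT was lower by at least 7.4-fold, 7.4-fold and 5.2-fold. The call of Lhx3 was lost without the second lacZ array (adjusted p = 0.0665). Bounds that rested on steadier lacZ pairs were those of Cyp4b1, a cytochrome P450, at -1.96 and -1.998 in lacZ and at least 8.8-fold lower in MGT, and of the protocadherin Pcdh10, at -2.16 and -2.45 and at least 7.1-fold lower.

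Between day 7 and day 10 the difference between the vectors changed in 186 genes, 1.03% of those tested, 143 upwards (0.793%) and 43 downwards (0.238%). The same direction was called on both days for 5302 genes, and opposite directions for 23. In the fit over only the 8 arrays of these days 0 changes passed the adjusted threshold and 1551 genes had an unadjusted p under 0.05, so these calls rest on the spread estimated from the whole series. Without the first day 10 lacZ array 956 changes were called and without the first MGT array 88.

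Among genes above background on all 8 arrays of both days, Myh6 had the largest upward change, and Actc1 was also called. Myh6 was at -1.28 and -1.45 on the lacZ arrays and 6.42 and 6.20 on the MGT arrays at day 7, and its difference grew by 2.20 ± 0.20, adjusted p = 0.00053, a call lost when its probes were averaged (adjusted p = 0.0536). Actc1 was at -0.27 and -0.06 on the lacZ arrays and 8.52 and 8.36 on the MGT arrays at day 7, and its difference grew by 1.61 ± 0.16, adjusted p = 0.000897. For both genes the lacZ level was lower at day 10 than at day 7 by more than 1 log2 unit. The MGT level of Myh6 was higher at day 10 on both arrays, while that of Actc1 was within its replicate range. Cox8b, a muscle subunit of cytochrome oxidase, went from 1.59 to 3.43 (1.84 ± 0.23, adjusted p = 0.00258). Also called were 3 interferon-induced genes, Ifit3, Ifit3b (1.68 ± 0.34, adjusted p = 0.0385) and the GTPase Tgtp2 (1.61 ± 0.27, adjusted p = 0.013). The change of Ifit3b was lost under 5 settings, among them leaving out the second lacZ array (adjusted p = 0.0913) or the first MGT array (adjusted p = 0.146), and that of Tgtp2 also as the mean of its probes (adjusted p = 0.0701). With a replicate block the change of Cox8b was lost (adjusted p = 0.0663).

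Dlk1 had the largest downward change among genes above background on all 8 arrays. It was at 0.87 and 0.87 on the lacZ arrays and -2.43 and -2.53 on the MGT arrays at day 7, and its difference moved by -1.84 ± 0.22, adjusted p = 0.0021, with the lacZ level higher and the MGT level lower at day 10. Gabra3, a subunit of the GABA-A receptor, moved by -1.27 ± 0.14, adjusted p = 0.00147, which was lost in the deposited table (adjusted p = 0.228). The sulfatase Arsi (-1.26 ± 0.15, adjusted p = 0.00188), the homeobox gene Dlx4 (-1.19 ± 0.21, adjusted p = 0.0219) and the ciliary gene Hydin (-1.11 ± 0.22, adjusted p = 0.0342) also moved down. The change of Dlx4 was lost under 6 settings, leaving out either MGT array among them (adjusted p = 0.0635 and 0.0659), and that of Hydin under 6, among them without the second MGT array (adjusted p = 0.106). Kbtbd11 moved by -1.11 ± 0.23, adjusted p = 0.043, but its probes disagreed, with day 10 differences from -1.11 to 1.46, and the change was lost under 10 settings, among them leaving out the second lacZ array (adjusted p = 0.102).

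Against day 3 the difference had changed in 2862 genes, 15.9% of those tested, 1412 upwards (7.83%) and 1450 downwards (8.04%). Myh6 differed by 0.15 at day 3, and its difference had grown by 9.73 ± 0.20, adjusted p = 1.23e-11 at day 10. Actc1 had grown by 6.02 ± 0.16, adjusted p = 1.9e-10 from a day 3 difference of 4.19, Rab3b by 4.67 ± 0.18, adjusted p = 5.68e-09 and Ank1, an ankyrin, by 4.13 ± 0.32, adjusted p = 2.71e-06. The genes named here were picked among those above background on all 8 arrays of days 3 and 10, with clone and predicted names left out. Dimmer genes were not ranked. Within that set the largest moves downward were those of Dlk1 (-4.83 ± 0.22, adjusted p = 2.82e-08), Scg2 (-4.50 ± 0.19, adjusted p = 1.68e-08), the phosphodiesterase Gdpd2 (-4.40 ± 0.14, adjusted p = 1.27e-09) and the adhesion receptor Adgrd1 (-4.29 ± 0.15, adjusted p = 2.76e-09). They reached this by different routes: Dlk1 differed by -0.37 at day 3 and -5.20 at day 10, Scg2 was higher in MGT on both days (7.25 and 2.75), and Gdpd2 and Adgrd1 turned from 2.67 and 1.92 to -1.73 and -2.37. Day 3 arrays lay on another slide, but each day's difference was taken within a slide.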

How the data were processed

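Per the file headers, scans of 1-colour Agilent mouse arrays were processed by Agilent Feature Extraction 10.7.3.1, whose background-subtracted spot intensity is deposited. The authors also deposited a table with a single intensity for each gene name. Its scale and centring are not stated, its day 10 column medians lay between 201.8 and 205.6, its ranks followed the scanner values (Spearman rho 0.989 to 0.990), and it served as an alternative. RNA extraction was with TRIzol and RNeasy, per the labels' protocols.

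Processed intensities were taken to log2 and shifted by the 75th percentile of their array. Control spots and spots with an outlier flag were dropped; saturated spots numbered 0. Probes stayed in (38787) when any group had both its arrays well above background. The brightest kept probe stood for each of 18043 genes, with symbols from the RefSeq table (GRCm38.p6) for 30201 of 55681 probes. Probe positions come from the array's design (mm9). Of 4722 genes with several probes 29 had probes called in opposite directions. Genes with a left-out spot lack that value (18021 had all 4).

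A linear model of 11 group means over all 22 arrays was fitted with limma 3.58.1 in R 4.3.3 (lmFit, eBayes), adjusted by Benjamini-Hochberg at 0.05, and tested on simulated data. The members and gene lists were chosen with earlier results of these data known. Named genes are the delivered factors, the 12 largest measured and 8 largest bounded changes each way, for each list as many as 4 members by size of difference, and the 6 and 4 largest changes from day 7 and day 3. Other list members, named for their known role, were chosen after their values were seen. Some list members are not reported here.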

Additional observations from a re-analysis of the deposited data

Results flagged for a closer look

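The difference between MGT and lacZ at day 10 departed from that at day 7 in 186 genes and from that at day 3 in 2862 genes, by limma's test of the change itself.

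Among the genes named, the signed difference (MGT minus lacZ) moved up from day 7 to day 10 by 2.20 for Myh6, 1.84 for Cox8b and 1.72 for Ifit3. The upward move was 1.68 for Ifit3b, 1.61 for Actc1 and 1.61 for Tgtp2. An upward move need not widen the gap between the vectors. For Ifit3 the difference went from -1.92 at day 7 to -0.20 at day 10, so the groups came closer. The signed difference also moved up by 1.6 for Ifi44, 1.53 for Irf7, 1.31 for Gja5, 1.22 for Tnnt3, 1.01 for Bves and 0.95 for Rab3b. For 6 genes at least 1 day 10 group was not well above background, so their fitted changes depend on background signal and give no size. These fitted values were 1.74 for Myh7b, 1.09 for Popdc3, -4.88 for Ucn2, -4.83 for Gngt1, -2.96 for Treml2 and -2.42 for Hoxc5. For genes measured on all 8 arrays the change was -1.84 for Dlk1, -1.27 for Gabra3, -1.26 for Arsi, -1.19 for Dlx4, -1.11 for Kbtbd11, -1.11 for Hydin and -0.97 for Adgrd1.

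From day 3 to day 10 the change was 9.73 for Myh6, 6.02 for Actc1, 4.67 for Rab3b and 4.13 for Ank1, and -4.83 for Dlk1, -4.50 for Scg2, -4.40 for Gdpd2 and -4.29 for Adgrd1. Groups of 2 arrays are too small for a test of single outlying arrays.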

How the results depend on the processing

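Of 162 named genes called at day 10, 140 kept their direction and call under all 17 other settings, and 146 did so when the fit of only the 4 day 10 arrays was set aside. The number called fell from 7103 to 3295 in that fit (1579 higher, 1716 lower), which has 2 residual degrees of freedom, and stayed within 1.5 times under the others. Leaving out 1 array at a time gave 5331 to 6654 calls, 2220 to 2608 higher and 3015 to 4152 lower. The change from day 7 was called in 186 genes, in 114 with normexp, 114 in the deposited table, 102 with no filter on dim probes, 0 from the 8 arrays alone and 304 without the day 0 and day 14 arrays, a setting added after seeing the data. Leaving out 1 array gave 88 to 956. The change from day 3, 2862 genes, was 1858 with normexp and 2059 to 3214 with 1 array left out. Some genes not called at day 10 changed sign with 1 array left out. The range of the difference was -3.38 to 0.980 for Mrc1, -2.55 to 0.835 for Cd5l, -3.09 to 2.21 for F13a1, -0.465 to 0.0699 for Ifit3, -0.562 to 0.0743 for Ifit3b, -0.182 to 0.0937 for Col1a1, -0.190 to 0.0855 for Smyd1, -0.587 to 0.316 for Neb, -1.85 to 1.56 for Nebl and -0.106 to 0.467 for Nkx2-5. For the dim Myf6, Myod1 and Myog it was -0.722 to 0.753, -0.328 to 0.0130 and -0.0450 to 0.809. Other settings changed the sign of Col1a1 (0.222 with quantile normalization, 0.0339 with the percentile over probes above background on every array, 0.170 in the deposited table), of Smyd1 (0.000362, 0.0261 and 0.299 in the same order, 0.401 as the mean of its probes) and of Adrb1 (0.165 in the deposited table, 0.198 as the mean of its probes). Of 48 genes named outside the rule 33 were called and 24 of these kept the call under every setting. Over all genes same-numbered arrays did not pair (correlations of deviations from -0.028 to 0.092). In the interferon list at day 10 the second array was the lower in both groups, by a median of -0.18 for lacZ and -0.19 for MGT. A replicate block within each day gave 6281 calls at day 10, 22 for the change from day 7 and 2008 for that from day 3. No cause was tested. Probes at background on a whole group limit what can be said to a bound, which held for 389 called genes. A further 161 called genes were well above background on none of the 4 day 10 arrays.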
